A study of Mus musculus with 1094 samples.

Results

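The 10 genes described here encode exchangeable subunits of the BAF chromatin remodelling complex: Actl6a, Phf10, Dpf2 and Ss18, which are counted as progenitor subunits, Actl6b, Dpf1, Dpf3 and Ss18l1, which are counted as neuronal subunits, and the alternative ATPases Smarca4 and Smarca2. The 10 genes were picked by symbol from the 23078 genes measured, and each symbol had 1 row. The cells were newborn neurons (NBN) and basal progenitors (BP) sorted by green fluorescence from Tbr2::GFP transgenic mice, and neural stem cells (NSC) sorted the same way from Hes5::GFP transgenic mice. All are labelled as C57Bl/6, Wild-type and Female, from the dorsal cerebral cortex. NBN came from E16.5 and E18.5 embryos and from P1 and P3 pups, BP from E12.5, E14.5, E16.5, E18.5 and P0, and NSC from E10.5, E11.5, E13.5, E15.5, E17.5, E18.5, P0 and P1. Tbr2 (Eomes) is expressed by intermediate progenitors and Hes5 is a Notch target of neural stem cells, and those promoters drive the reporters. Single cells were captured on the Fluidigm C1, a microfluidic array, and their RNA was amplified and sequenced.

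The BAF complex moves nucleosomes with the ATP-driven motor SMARCA4 (BRG1) or SMARCA2 (BRM). In mouse neural development it is known for an exchange of subunits as progenitors leave the cell cycle. The actin-related protein BAF53a, made from Actl6a, gives way to BAF53b, made from Actl6b. PHF10 (BAF45a) and DPF2 (BAF45d) give way to DPF1 (BAF45b) and DPF3 (BAF45c), and SS18 gives way to its paralogue SS18L1 (CREST). In mouse neurons Actl6a is known to be repressed through its 3′ UTR by miR-124 and miR-9-3p (miR-9*), whose own genes are repressed in progenitors by REST.

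The microRNA and the site in the Actl6a message are shown because Actl6a had the smallest limma p among the progenitor subunits in NBN against NSC. The first line is the mature mouse microRNA from RefSeq on GRCm38.p6, with its seed, bases 2 to 8, in capitals, and the second is the 3′ UTR of Actl6a around its match, in which capitals mark the 7 letters that pair with the seed.
mmu-miR-9-3p: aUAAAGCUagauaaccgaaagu
Actl6a 3′ UTR: cacctcaacgtctgtAGCTTTAg
The match lay at chr3:32726640-32726646 on the plus strand of GRCm38, in the GENCODE M21 annotation, and began at base 38 of a 3′ UTR of 371 bases. The same 7 letters, AGCTTTA, read on the transcript strand, were in 2376 of 21016 annotated 3′ UTRs (11.3%). Among the 10 genes, the 3′ UTRs of Actl6a and Smarca2 held 1 match each, and the other 8 held none in the windows searched. A match of letters is a description and was not tested as a site.

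The deposited values are TPM, a length-scaled share of a cell's transcripts that sums to nearly the same total in each cell, so the sequencing depth is unknown. Of 1094 cells, 1071 with at least 1000 genes at 1 TPM or more were kept, 207 NBN cells in 4 libraries, 332 BP cells in 5 and 532 NSC cells in 8. The kept cells of a population at a given stage are called a library, and its value for a gene is the mean TPM over its cells. Fewer cells with a transcript and less transcript per cell cannot be told apart in such a mean. The libraries served as the replicates of a population. Each population had 1 library per stage, so no stage was replicated. The labels name no animals, so p-values measure the spread between libraries, which may be technical. That spread also holds differences in cell composition, and differences between stages that a linear age term does not take up. The median number of genes per cell was lowest in NBN P1, at 3189, and highest in NBN E16.5, at 5764.

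Several libraries went against their labels. In NBN P3, 34 of 39 cells held markers of another cell type, among them 16 with microglial and 13 with meningeal markers. Only 10 of its cells had a neuron profile, meaning a higher mean log2 level of 14 newborn neuron markers than of 15 radial glia markers. The other NBN libraries had a neuron profile in 61 of 63, 64 of 66 and 37 of 39 cells, and the BP libraries in 329 of 332. Among the stem cells, 239 of 532 cells had a neuron profile. In NSC E15.5 it was 79 of 86 cells, in NSC E17.5 it was 55 of 76, in NSC E13.5 it was 37 of 66 and in NSC E11.5 it was 35 of 58. Nearly all BP cells had the profile too, so it does not separate neurons from basal progenitors. The mean log2 level of 12 basal progenitor markers was 5.93, 5.97, 6.23 and 5.45 in those NSC libraries. In the BP libraries it ran from 5.72 to 6.62. Markers of another cell type were also held by 92 of 532 NSC cells and 21 of 332 BP cells. Interneuron markers were held by 15 of 76 cells in NSC E17.5 and 12 of 58 in NSC E11.5. In NSC E18.5, 10 of 66 cells held markers of the oligodendrocyte lineage. None of the 10 genes is on these marker lists.

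By mean TPM the actin-related pair stood in opposite orders in newborn neurons, where E18.5 was level, and in most stem cell libraries. Actl6a, the progenitor form, had 33.2, 70.7, 2.27 and 24.1 TPM in NBN in order of age. In BP it had 186, 103, 105.3, 77.3 and 48.6 TPM in order of age. In NSC the lowest library was E17.5 at 54.6 TPM, the median was 118 and the highest was E10.5 at 198. Of the 4 NBN libraries, 3 lay below every BP and NSC library, while NBN E18.5 lay above the lowest library of both.

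Actl6b, the neuronal form, had 99.3, 71.0, 38.6 and 39.2 TPM in NBN. In BP it had 23.3, 96.0, 97.7, 53.4 and 69.3 TPM. In NSC it ran from 0 TPM at E10.5 and P1 through a median of 11.1 to 120 TPM at E17.5. NSC E17.5 exceeded every other library and NSC E15.5 stood at 42.5 TPM, while the remaining 6 NSC libraries were at or below 20.8 TPM, under every BP and NBN library. Single cells carried some of these means: all of the 39.2 TPM of NBN P3 came from 1 cell at 1528 TPM, and all of the 20.8 TPM of NSC P0 from 1 cell at 934 TPM.

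Within a library, the log2 ratio of Actl6b to Actl6a averaged 1.46 ± 1.56 in NBN, -0.64 ± 1.34 in BP and -3.72 ± 2.86 in NSC (SD over 4, 5 and 8 libraries). It was above 0 in 4 of 4 NBN libraries, in 1 of 5 BP libraries, which was P0 at 0.50, and in 1 of 8 NSC libraries, which was E17.5 at 1.13. The lowest NBN ratio, at E18.5, was 0.01, so there the forms were level. NBN E18.5 held 1 cell with 3059 TPM of Actl6a, which carried 65.6% of that library's total. In NBN P3, with a ratio of 0.68, all Actl6b came from 1 cell, while 7 of its 39 cells had Actl6a only.

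**Figure D1:**
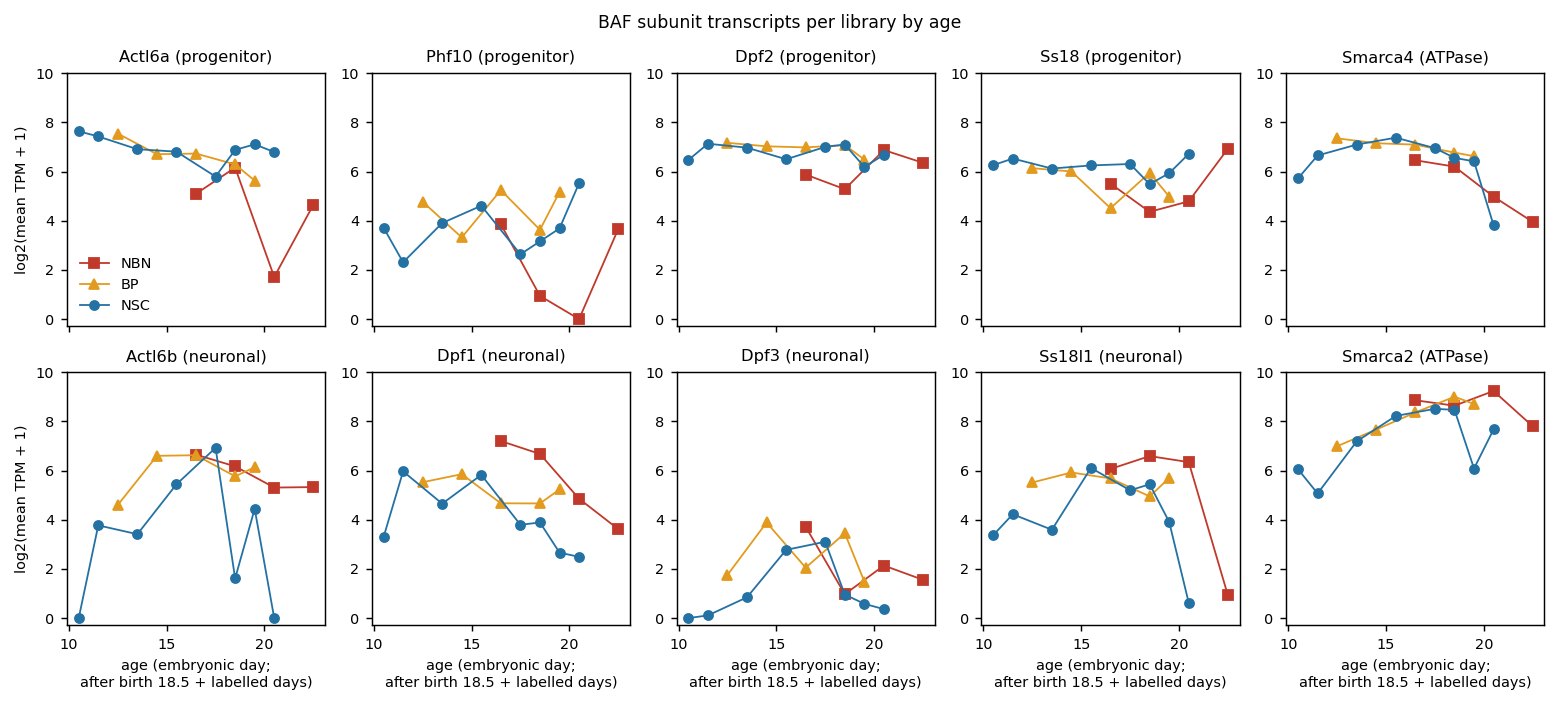
Log2(mean TPM + 1) of each of the 10 genes against age in days, with squares for NBN, triangles for BP and circles for NSC, 1 point per library. Progenitor subunits are above and their neuronal counterparts below, with Dpf2 above Dpf3, and the last column holds the ATPases. Actl6a points of NBN lie low at P1 (2.27 TPM), Actl6b points of NSC peak at E17.5 (120 TPM), and Ss18l1 drops to 0.912 TPM in NBN P3.

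Most cells with Actl6a or Actl6b at 1 TPM or more had only 1 of them. Cells at 1 TPM or more of Actl6b without Actl6a were 57 of 207 in NBN, 68 of 332 in BP and 44 of 532 in NSC. The reverse, Actl6a without Actl6b, was seen in 25 NBN cells, 87 BP cells and 238 NSC cells. Both were detected in 20 NBN, 45 BP and 23 NSC cells. Cells with neither made up 50.7% of NBN, 39.8% of BP and 42.7% of NSC cells, and had fewer genes detected, with medians of 3696, 4731 and 4147 genes against 5957.5, 5313 and 5778 in cells with both. The overlap that independent detection of both genes would give was not computed, so these classes do not show that the forms exclude each other. The part that detection plays in these classes was not tested.

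The share of cells with Actl6a was 28.6, 27.3, 5.13 and 17.9% in NBN in order of age, and between 31.1 and 55.6% in BP. It was 81.8% in NSC E10.5, with an exact 95% interval of 72.2 to 89.2%, and 27.3% in NSC E18.5, with an interval of 17.0 to 39.6%. The intervals cover counting error only. For Actl6b the share was 58.7, 48.5, 17.9 and 2.56% in NBN and between 27.8 and 48.9% in BP. In NSC E10.5 it was 0 of 88 cells, which allows a share of up to 3.41%, and in NSC P1 it was 0 of 47 cells, which allows up to 6.38%. NBN P1 and P3 were below every BP library in this share. Their median genes per cell, 3189 and 3436, were also below every BP library, of which the lowest was E16.5 at 4608. The medians were 5688 genes in NSC E10.5 and 3428 in NSC E18.5. The part of detection in these shares was not tested.

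**Figure D2:**
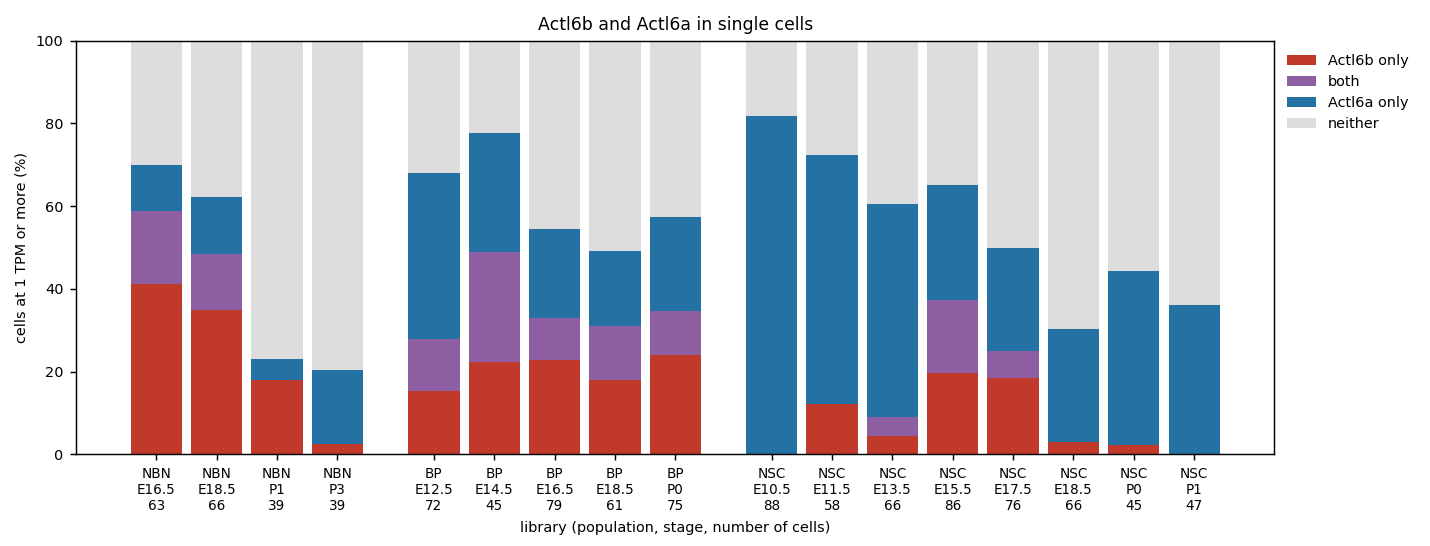
Share of cells in percent, per library, that had at least 1 TPM of Actl6b only, of both, of Actl6a only or of neither, with the number of cells under each bar. Actl6b only reaches 26 of 63 cells in NBN E16.5, and in NSC E10.5 none of 88 cells has it and 72 have Actl6a only.

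The PHD finger subunits did not move as a block. Dpf2, which reads acetylated histones, was a broad progenitor form with 57.8, 38.0, 116 and 80.9 TPM in NBN. It had 143, 129, 126, 134 and 88.7 TPM in BP, and in NSC a lowest value of 72.1, a median of 113 and a highest of 139 TPM. NBN E16.5 and E18.5 were below every BP and NSC library, whereas NBN P1 was inside both ranges and NBN P3 inside that of NSC. In BP E18.5, 1 cell at 5050 TPM carried 61.6% of the Dpf2 total. Phf10, a subunit of the PBAF form of the complex, was sparse, with 13.47, 0.924, 0 and 11.6 TPM in NBN, 26.3, 8.99, 37.0, 11.4 and 34.9 TPM in BP, and 3.96 to 45.0 TPM in NSC with a median of 12.0. Its means rested on few cells: 1 cell carried 92.3% of the total in NBN P3, 80.2% in BP E12.5 and 97.8% in NSC E18.5. NBN E18.5 and P1 were below every BP and NSC library, and the others overlapped. In GENCODE M21, 470 of the 4914 exonic bases of Phf10 are also exonic in 1600012H06Rik on the opposite strand, and 452 of the 3886 of Actl6a in Mrpl47. The Nextera XT kit named in the labels does not mark strand, so reads from those shared bases cannot be told apart, and the values of both genes are uncertain to that extent. Of Dpf1, 96 of 5376 exonic bases are shared with Gm44632.

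Dpf1, the neuronal form with the clearest pattern, had 146, 101, 27.9 and 11.3 TPM in NBN. In BP it had 45.1, 56.8, 24.4, 24.3 and 36.5 TPM, and in NSC a lowest value of 4.62 at P1, a median of 13.3 and a highest of 61.6 TPM at E11.5. NBN E16.5 and E18.5 were above every BP and NSC library, NBN P1 was inside both ranges, and NBN P3 was below every BP library and inside the range of NSC. Dpf1 was found at 1 TPM or more in most cells everywhere, 89.8 ± 10.1% in NBN, 86.5 ± 5.39% in BP and 85.8 ± 7.90% in NSC (SD over libraries). The median among cells with the transcript was 66.0, 19.1, 7.36 and 4.22 TPM in NBN in order of age, between 4.07 and 18.2 TPM in BP and between 3.28 and 10.5 TPM in NSC. NBN E16.5 and E18.5 were above both ranges in this median, and NBN P1 and P3 were inside both. At 5 TPM or more the shares were 64.7% in NBN, 52.8% in BP and 40.8% in NSC.

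Dpf3, the other neuronal form, had the lowest median level of the 10 genes in each population, with 12.1, 0.959, 3.40 and 1.94 TPM in NBN, 2.37, 13.8, 3.14, 9.94 and 1.80 TPM in BP, and 0 to 7.60 TPM with a median of 0.647 in NSC. It was detected in 5.94 ± 3.90% of NBN, 9.77 ± 6.41% of BP and 3.41 ± 3.08% of NSC cells. A single cell made up the whole Dpf3 signal in NBN P1 and NBN P3, and in NSC E11.5, E18.5 and P0. The groups overlapped. The summed neuronal PHD forms stayed below the summed progenitor forms in all 5 BP libraries, with a mean log2 ratio of -1.80 ± 0.57, and in all 8 NSC libraries, with -2.75 ± 1.25. In NBN the ratio was 1.14 at E16.5, 1.37 at E18.5, -1.86 at P1 and -2.72 at P3.

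Ss18, the progenitor form of the next pair, had 44.5, 19.6, 26.6 and 121 TPM in NBN. In BP it had 69.4, 63.2, 21.8, 60.8 and 30.7 TPM, and in NSC it ran from 44.0 through a median of 75.4 to 104 TPM. NBN P3 was the highest of all 17 libraries, and it averaged 2.34 TPM in the cells with a neuron profile and 161 TPM in those without. Ss18l1, the calcium-responsive transactivator of dendrite growth, had 66.0, 95.3, 80.2 and 0.912 TPM in NBN. It had 44.7, 59.6, 50.3, 29.9 and 50.8 TPM in BP, and from 0.539 at P1 through a median of 15.9 to 67.9 TPM at E15.5 in NSC. NBN E18.5 and P1 lay above every BP and NSC library, and NBN P3 lay below all but NSC P1. In NBN P1, 1 cell at 1638 TPM carried 52.4% of the Ss18l1 total, and the median in cells with the transcript was 8.46 TPM. The log2 ratio of Ss18l1 to Ss18 was above 0 in 3 of 4 NBN libraries, 2 of 5 BP libraries and 0 of 8 NSC libraries, and was -5.99 in NBN P3.

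Of the ATPases, Smarca4 had 87.0, 72.6, 30.6 and 14.51 TPM in NBN. It had 162, 141, 136, 108 and 97.7 TPM in BP, and from 13.1 at P1 through a median of 96.5 to 166 TPM at E15.5 in NSC. All 4 NBN libraries were below every BP library, and all were inside the range of NSC. Smarca2 had 463, 397, 602 and 222 TPM in NBN. It had 126, 203, 328, 512 and 417 TPM in BP, and in NSC from 32.5 at E11.5 through a median of 174 to 364 TPM at E17.5. NBN E16.5, E18.5 and P1 were above every NSC library, and NBN overlapped BP. Smarca2 exceeded Smarca4 in 4 of 4 NBN libraries, by a log2 ratio of 3.24 ± 0.96, in 4 of 5 BP libraries, by 1.15 ± 1.09, and in 6 of 8 NSC libraries, by 0.83 ± 1.64. In BP the ratio was lowest at E12.5 (-0.36) and highest at E18.5 (2.23). Of the 14269 exonic bases of Smarca2, 40 are shared with 4931403E22Rik on the opposite strand.

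**Figure D3:**
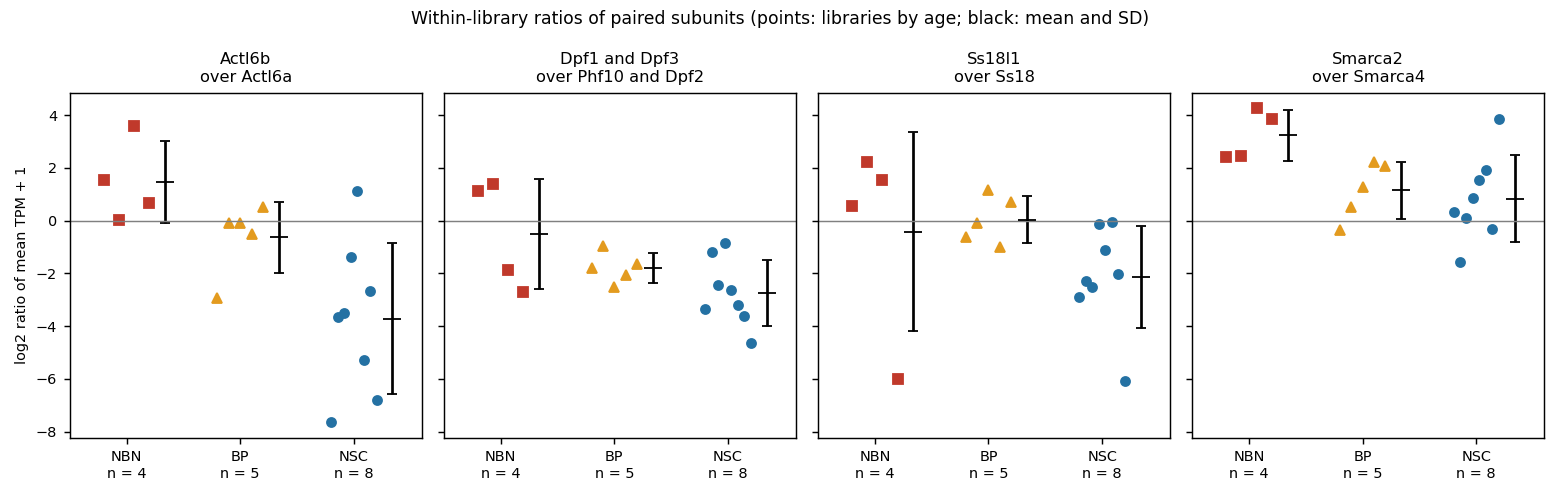
Log2 ratio of the mean TPM + 1 within each library for the 4 pairs, with 1 point per library in order of age inside each population, and the mean and SD in black (4 NBN, 5 BP and 8 NSC libraries). All 4 NBN points of Actl6b over Actl6a lie at or above 0, and the single NBN point far below 0 for Ss18l1 over Ss18 is P3. The P3 point of Actl6b over Actl6a takes all its Actl6b from 1 cell.

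Differences between populations were tested on log2(mean TPM + 1) with limma across 14099 genes and all 17 libraries, with 1 common slope for age and Benjamini-Hochberg adjustment. Newborn neurons against stem cells showed the pattern most fully. All 4 neuronal subunits had positive estimates (median 1.95 on the log2 scale) and all 4 progenitor subunits negative ones (median -1.30), beside a median of -0.11 over all genes. Without cells holding markers of another type Ss18 turned to 0.065. That setting left out 34 of the 39 cells of NBN P3 but kept the library on the few cells left. By limma none of the 10 passed at an adjusted p of 0.05, in a comparison in which 1.73% of all genes did. At an unadjusted p of 0.05, 2 were higher (5.38% of all genes were) and 2 lower (10.7% of all genes were).

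Dpf1 differed between NBN and NSC by 2.37 ± 0.65 (log2, SE, limma adjusted p = 0.0656). Actl6b differed by 2.56 ± 1.15 (limma adjusted p = 0.279). Actl6a had a difference of -2.01 ± 0.60 (limma adjusted p = 0.0878) and Phf10 one of -1.83 ± 0.83 (limma adjusted p = 0.284). The other differences were 1.52 ± 1.04 for Ss18l1, 0.96 ± 0.78 for Dpf3, -0.64 ± 0.33 for Dpf2 and -0.77 ± 0.49 for Ss18, with limma adjusted p from 0.364 to 0.609. The estimates for the ATPases were 0.87 ± 0.57 (Smarca2) and -0.39 ± 0.56 (Smarca4), and both signs turned with the processing. Smarca2 was at -0.52 without cells holding markers of another type, and Smarca4 at 0.073 without neuron-profile NSC cells and at 0.24 with stage as a factor.

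Single libraries decided some of these calls. Without NBN P3 the difference of Dpf1 was 2.70 and passed (limma adjusted p = 0.0252, with 4.52% of all genes called), and that of Ss18l1 was 2.43 (limma adjusted p = 0.0989). Dpf1 passed also without NSC E15.5 (2.59, limma adjusted p = 0.0293, with 3.14% of all genes called) and without NSC E10.5 (2.39, limma adjusted p = 0.0306, with 1.65%). Actl6a passed without NBN E18.5 (-2.60, limma adjusted p = 0.0453, with 0.915%). Over the 17 fits that each left out 1 library, the adjusted p of Dpf1 ran from 0.0252 to 0.202 and that of Actl6a from 0.0453 to 0.211.

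Some other ways of forming the values called 1 or 2 of the genes in the same comparison by limma. With all cells, with at least 2000 genes per cell, with a pseudocount of 0.1 or 10, with a mean of 5 TPM as the filter or with no filter, 0 were called. Dpf1 passed in libraries from E16.5 on (2.62, with 2.0% of all genes called), with the mean of log2 values over cells (1.78, with 1.85%), after quantile normalization (2.54, with 1.94%) and without cells holding markers of another type (2.70, with 1.82%). Actl6a passed with no age term (-2.52, with 2.28%) and Actl6b with stage as a factor (4.29, with 3.18%). With stage as a factor, only stages with more than 1 population inform a population difference, which are E16.5, E18.5, P0 and P1. Without both NBN P3 and NSC E15.5, a setting chosen after seeing the data, Dpf1 (2.92) and Ss18l1 (2.71) passed, with 7.06% of all genes called.

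Basal progenitors against stem cells shared 1 direction with that comparison, for the neuronal side only. All 4 neuronal subunits had positive estimates (median 1.497, beside 0.14 over all genes), while 2 progenitor subunits were positive and 2 negative. Actl6b differed by 2.73 ± 0.97 (limma adjusted p = 0.226), Dpf3 by 1.43 ± 0.66 (limma adjusted p = 0.343), Dpf1 by 1.22 ± 0.55 (limma adjusted p = 0.334) and Ss18l1 by 1.56 ± 0.87 (limma adjusted p = 0.438). Actl6a differed by -0.28 ± 0.50, Dpf2 by 0.20 ± 0.28, Ss18 by -0.68 ± 0.41 and Phf10 by 0.70 ± 0.70. By limma 0 of the 10 passed (0.504% of all genes did), and 3 were higher at an unadjusted p of 0.05 (6.79% of all genes were). Both comparisons share the NSC libraries.

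In newborn neurons against basal progenitors no member passed, and 9 of the 10 estimates were negative. All 4 progenitor subunits had negative estimates (median -1.28, beside -0.23 over all genes, of which 37.0% were positive), and of the neuronal ones only Dpf1 was positive (1.16 ± 0.69). Actl6a differed by -1.73 ± 0.63 (limma adjusted p = 0.411), Phf10 by -2.53 ± 0.88 (limma adjusted p = 0.385) and Dpf2 by -0.83 ± 0.35 (limma adjusted p = 0.476). Both ATPases were negative, Smarca4 at -1.13 ± 0.59 (limma adjusted p = 0.577) and Smarca2 at -0.05 ± 0.60. Ss18 (-0.09 ± 0.52), Actl6b (-0.17 ± 1.22), Dpf3 (-0.47 ± 0.83) and Ss18l1 (-0.05 ± 1.10) had errors larger than their estimates, and after quantile normalization, which moved the median of all genes to -0.02, Ss18 and Ss18l1 were positive. By limma 0 of the 10 passed (0.0284% of all genes did), and 3 were lower at an unadjusted p of 0.05 (6.65% of all genes were).

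**Figure D4:**
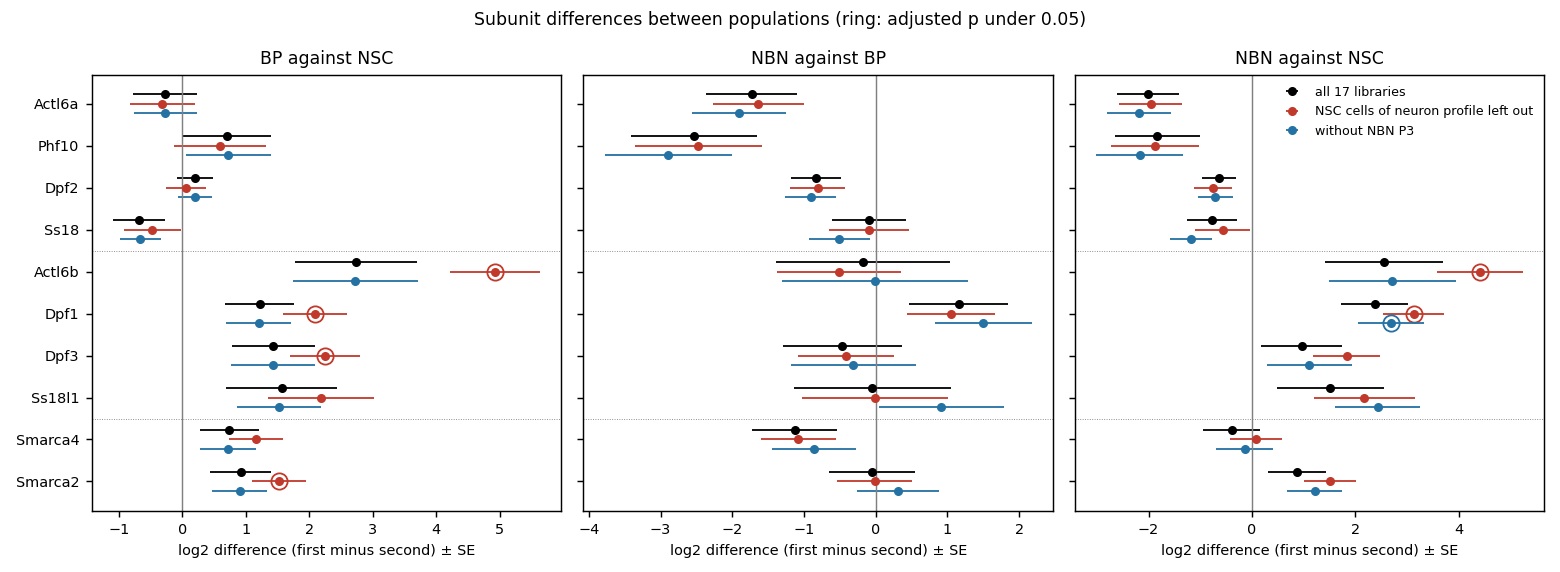
Log2 differences with SE for the 10 genes in BP against NSC, NBN against BP and NBN against NSC (left to right), with all 17 libraries in black, with NSC cells of neuron profile left out in red and without NBN P3 in blue. Rings mark a limma adjusted p under 0.05, which no black point has. The red Actl6b points lie at 4.93 and 4.41 in the comparisons with NSC, in which only NSC lost cells.

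In 3 of the 4 stem cell libraries with at least 10 cells on each side, nearly all Actl6b sat in cells with a neuron profile. In NSC E17.5, Actl6b averaged 166 TPM in the 55 cells with a neuron profile and 0.22 TPM in the 21 without. In NSC E11.5 it was 21.0 TPM in 35 cells and 0 TPM in 23, and in NSC E13.5 it was 17.1 TPM in 37 cells and 0.13 TPM in 29. NSC E18.5 was the exception by mean, with 1.18 TPM in 18 cells and 2.39 TPM in 48. There 1 cell on each side, at 20.4 and 114 TPM, carried nearly all of the mean. By share, Actl6b was detected in 5.56% of its cells with the profile and 2.08% of those without. In NBN P3 the 10 cells with a neuron profile averaged 153 TPM, all from 1 cell, and the other 29 had 0. Median genes per cell were 4944 inside and 4608 outside the profile in NSC E17.5, and in the other 4 libraries they were lower inside, from 3258 and 3491 in NBN P3 to 5234 and 5544 in NSC E13.5.

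Across the 5 libraries with at least 10 cells on each side, mean TPM was higher in cells with a neuron profile in 5 of 5 libraries for Smarca2 and Ss18l1, in 4 of 5 for Actl6b and Dpf1 and in 3 of 5 for Dpf3. Among the progenitor subunits it was higher in 3 of 5 for Ss18, 2 of 5 for Actl6a and Dpf2 and 1 of 5 for Phf10. For Smarca4 it was higher in 3 of 5. By share of cells with the transcript, Actl6b and Smarca4 were higher in 5 of 5, Dpf1 and Ss18l1 in 4 of 5 and Dpf3 and Smarca2 in 3 of 5. Each of the 4 progenitor subunits was higher by share in 1 of 5. Cells with the profile had more genes detected in 1 of the 5 libraries, and the part of detection was not tested. Smarca2 had 415 TPM in such cells of NSC E17.5 and 230 TPM in the others. In NSC E18.5 it had 875 TPM in such cells and 158 TPM in the others, but 1 cell at 11984 TPM carried much of the first value. Without the highest cell on each side the NSC E18.5 means were 221 and 118 TPM, and Smarca2 was detected in 50.0% of cells with the profile and 56.25% of those without. Cells of 1 library are not replicates, so these are descriptions without a test.

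With neuron-profile cells left out of the stem cell libraries, 7 NSC libraries remained, since NSC E15.5 kept 7 cells and was dropped. BP against NSC then called 4 of the 10 genes, all higher in BP: Actl6b by 4.93 ± 0.71 (limma adjusted p = 0.000729), Dpf1 by 2.08 ± 0.50 (limma adjusted p = 0.018), Dpf3 by 2.25 ± 0.55 (limma adjusted p = 0.0191) and Smarca2 by 1.52 ± 0.43 (limma adjusted p = 0.0376). In that fit 7.73% of all genes were called. NBN against NSC called Actl6b, by 4.41 ± 0.83, and Dpf1, by 3.13 ± 0.59 (both with a limma adjusted p of 0.00616), where 5.41% of all genes were called. Actl6a did not pass (-1.96 ± 0.61, limma adjusted p = 0.073). The cells left out were chosen by neuronal and glial markers in NSC only, and BP and NBN libraries kept all their cells. Leaving them out lowers NSC values of genes that go with the profile, so the calls of this fit are not independent support.

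Age was tested with a separate slope for each population. In NSC, 205 genes (1.45%) passed by limma and none of the 10 did. At an unadjusted p of 0.05, Smarca2 had a slope of 0.19 ± 0.08 log2 units per day, where 8.09% of all genes were higher with age, and Dpf1 one of -0.20 ± 0.09, where 5.08% were lower. The Smarca2 series in NSC had its 3 highest values at E15.5, E17.5 and E18.5, with 298, 364 and 354 TPM, and 66.7 TPM at P0, and 1 cell carried 51.4% of the E18.5 total. In BP, 0 genes passed by limma (0.0%), with 505 of 14099 (3.58%) at an unadjusted p of 0.05 and none of the 10 among them. Smarca2 had the largest BP slope of the 10, at 0.27 ± 0.14 (limma unadjusted p = 0.0671), with each BP value up to E18.5 above the one before it.

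In NBN, 0.546% of all genes passed and none of the 10 did by limma. Averaging log2 values over cells called 3 of the 10 in NSC, all lower with age (15.4% of all genes were called), and 4 in NBN (16.3%), and leaving out cells of another type called 4 in NBN (22.6%). At an unadjusted p of 0.05, Dpf1 (-0.63 ± 0.20 per day), Ss18l1 (-0.78 ± 0.32) and Smarca4 (-0.44 ± 0.18) had negative slopes, as did 15.6% of all genes. These slopes rest on 4 libraries of which the last, P3, holds mostly cells with markers of other types. Leaving out cells of another type removed 34 of the 39 cells of P3 but kept the library in the slope. Between BP and NSC, 1 gene (0.00709%) differed in slope and none of the 10 did by limma, with none at an unadjusted p of 0.05 (3.91% of all genes were).

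Levels of the 10 genes moved together only in part over the 17 libraries, which share libraries, cell numbers and protocol, so correlations are descriptions. Neuronal forms ran alongside each other, with Pearson r of 0.73 for Actl6b and Dpf3, 0.70 for Dpf1 and Ss18l1, 0.59 for Actl6b and Ss18l1, 0.58 for Actl6b and Dpf1, 0.50 for Dpf3 and Ss18l1 and 0.45 for Dpf1 and Dpf3. The progenitor forms were looser, from 0.54 for Actl6a and Phf10 to 0.15 for Actl6a and Dpf2. Between paired forms r was -0.70 for Ss18 and Ss18l1, -0.38 for Actl6a and Actl6b and -0.03 for Smarca2 and Smarca4. Among the PHD finger forms it was -0.24 for Phf10 and Dpf1 and for Dpf2 and Dpf1, -0.01 for Phf10 and Dpf3 and 0.10 for Dpf2 and Dpf3. Some pairs with an ATPase were as strong, so high values were not particular to the neuronal forms. They were 0.70 for Smarca4 and Ss18l1, 0.62 for Smarca2 and Dpf3 and -0.61 for Actl6a and Smarca2.

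Among 12660 tested genes reaching 10 TPM in some library, those most like Actl6b over the 17 libraries were Cdk5r1, which activates the neuronal kinase CDK5 (r = 0.92), Ttc28 (0.90) and Trp53inp2 (0.90). Most like Actl6a were Rars, the arginyl-tRNA synthetase (0.92), Psmb2, a proteasome subunit (0.91), and Tubg1, the gamma-tubulin of centrosomes (0.90). Dpf1 was nearest to the neuronal intermediate filament gene Ina and the microtubule-associated protein gene Map1b (0.89 each), and Ss18l1 to Tub (0.93) and to Pclo, a presynaptic scaffold (0.92). Map1b is on the neuron list used for the profile.

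The other subunits of the BAF family, 21 genes fixed as a list, showed no call by limma in any comparison. In BP against NSC, 18 of the 21 estimates were positive (median 0.43) and 1 was higher at an unadjusted p of 0.05 (6.79% of all genes were). That was Bcl11a, a neuronal zinc finger subunit, with 2.22 ± 0.75 (limma adjusted p = 0.209). It had 271, 326, 214 and 21.5 TPM in NBN, 227 to 386 TPM in BP and 10.2 to 269 TPM in NSC. In NBN against BP, 19 were negative (median -0.58), and the largest was Bcl7b at -1.97 ± 0.65 (limma adjusted p = 0.353). In NBN against NSC, 15 were negative, with Bcl7b at -1.61 ± 0.61 and Bcl11a at 1.51 ± 0.89. At an unadjusted p of 0.05, 2 of the 21 were lower in NBN against BP (6.65% of all genes were) and 2 in NBN against NSC (10.7%), and 7 had negative age slopes in NBN (15.6%). Of all genes tested, 58.3% were positive in BP against NSC and 37.0% in NBN against BP.

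Of 7 listed regulators, 6 were tested: Rest, its corepressors Rcor1 and Rcor2, and 3 host transcripts of the microRNAs. None was called by limma. At an unadjusted p of 0.05 there were 1 higher (5.38% of all genes were) and 1 lower (10.7%) in NBN against NSC, 2 higher in BP against NSC (6.79%) and 1 lower in NBN against BP (6.65%). A host of miR-124, the one of Mir124a-1, listed as A930011O12Rik, had 33.6, 57.3, 61.2 and 14.2 TPM in NBN, 12.9 to 37.3 TPM in BP and 0.464 to 30.2 TPM in NSC. Its difference in NBN against NSC was 2.51 ± 0.80 (limma adjusted p = 0.118). Of the 2 host genes of miR-9 on the list, AI854517 (Mir9-3) differed by -2.75 ± 0.75 in NBN against NSC (limma adjusted p = 0.064), and C130071C03Rik (Mir9-2) by 0.03 ± 0.43. Host transcripts do not give the level of the mature microRNA. Rest, the repressor, had 14.1, 20.7, 0.126 and 31.6 TPM in NBN, 2.69 to 7.38 TPM in BP and 4.81 to 23.8 TPM in NSC, and had estimates of -0.59 ± 0.81 in NBN against NSC, 0.82 ± 0.86 in NBN against BP and -1.41 ± 0.68 in BP against NSC, with limma adjusted p from 0.371 to 0.813.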

How the data were processed

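Single-cell RNA-seq of mouse cortical cells was analysed. The authors deposited TPM per gene and cell in 17 tables, and the submitters' processing notes list kallisto 0.43.0 and the builds mm10 and GRCm38.p2. The authors deposited whole numbers only for 7 nearly empty cells, classed here as a score on the TPM scale, and all 7 fell under the cell filter. TPM keep no depth, so no count model was used. Cells with at least 1000 genes at 1 TPM or more were kept (1071 of 1094), and no 2 cell columns were identical. No doublet caller was run. A library's value was log2 of its mean TPM plus 1, a scale on which low genes show too small a change. Tests covered the 14099 genes at a mean of 1 TPM or more in at least 4 libraries, which include all 10 members, and used limma 3.58.1 in R 4.3.3 (eBayes with trend, two-sided), population and age as terms, and Benjamini-Hochberg adjustment at 0.05. Age was the embryonic day, or 18.5 plus the days in the labels' age field, which gives 1, 2 and 4 days for P0, P1 and P3. The fit was tested on simulated data. A G2/M profile meant at least 5 genes of a list at 1 TPM or more, and markers of another cell type meant at least 3 genes of 1 list at 10 TPM or more. Shares have exact (Clopper-Pearson) 95% intervals, and a share of 0 has a limit of 3 cells of the total. In GENCODE M21, 22361 of 23078 gene IDs were found. The members, lists and named genes (members, 21 other subunits, 7 regulators, and the genes most like each member) were chosen with earlier results of these data known. Python 3.11.15, NumPy 2.4.6, pandas 2.3.3, SciPy 1.17.1 and matplotlib 3.10.9 were used.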

Additional observations from a re-analysis of the deposited data

Results flagged for a closer look

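Each of the 10 genes was looked at within NBN, BP and NSC, 30 groups in all, for a library whose gap to its nearest neighbour on the log2 scale, as a share of the whole range of its population, was above Dixon's 95% critical value. By that level chance flags about 1 in 20 groups, and 4 of the 30 had such a library. Actl6a stood low in NSC E17.5, at 54.6 TPM. Dpf2 stood low in BP P0, at 88.7 TPM. Ss18l1 stood low in NBN P3, at 0.912 TPM, the library in which 34 of 39 cells held markers of another cell type. Smarca4 stood low in NSC P1, at 13.1 TPM.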

How the results depend on the processing

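No paired analysis was possible because the replicate numbers in the labels count cells within a library, so stage as a factor was used in place of a replicate block. Libraries at a stage with only 1 population do not inform a population difference in that fit. The cause of each change below was not tested, beyond the cells or libraries that a setting leaves out. Without NSC cells of neuron profile, 4 members were called in BP against NSC and 2 in NBN against NSC. Those calls follow a choice of cells by neuronal markers made in NSC only. Calls in NBN against NSC were also 2 without NBN P3 and NSC E15.5 (Dpf1 at 2.92 and Ss18l1 at 2.71), a setting chosen after seeing the data, and 1 with no age term (Actl6a at -2.52), with stage as a factor (Actl6b at 4.29), from E16.5 on (Dpf1 at 2.62), with the mean of log2 over cells (Dpf1 at 1.78), after quantile normalization (Dpf1 at 2.54) and without cells holding markers of another type (Dpf1 at 2.70). Leaving out 1 library gave 0 to 1 calls there. For age slopes, the mean of log2 over cells called 3 members in NSC, all lower (Actl6a at -0.32, Dpf2 at -0.25 and Ss18 at -0.18 per day, where 15.4% of all genes were called), and 4 in NBN (Actl6b, Dpf1, Smarca2 and Ss18l1, where 16.3% were). Without cells of another type 4 were called in NBN (Actl6a, Dpf2, Smarca2 and Smarca4, where 22.6% were). In that setting NBN P3 lost 34 of its 39 cells but was kept, so its values rest on few cells.

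Some estimates, none of them called with all 17 libraries, reversed. In BP against NSC, Phf10 was at -0.046 with stage as a factor, and Dpf2 at -0.080 with at least 2000 genes per cell and -0.19 with the mean of log2. In NBN against BP, Ss18 was at 0.17 with the mean of log2, 0.11 after quantile normalization and 0.13 without cells of another type. Actl6b was at 0.35 from E16.5 on and 0.89 with stage as a factor. Dpf3 was at 1.54 with all cells and 0.21 from E16.5 on. Ss18l1 was at 0.60 from E16.5 on, 0.11 with the mean of log2, 0.13 with a pseudocount of 10, 0.19 after quantile normalization, 0.090 without cells of another type, 0.90 without NBN P3 and NSC E15.5 and 1.60 with stage as a factor. Smarca2 was at 0.017 with 2000 genes per cell, 0.14 from E16.5 on, 0.18 with the mean of log2, 0.10 after quantile normalization, 0.30 without NBN P3 and NSC E15.5 and 0.49 with no age term. In NBN against NSC, Ss18 was at 0.065 and Smarca2 at -0.52 without cells of another type, and Smarca4 was at 0.073 without neuron-profile NSC cells, 0.00058 without NBN P3 and NSC E15.5 and 0.24 with stage as a factor. Leaving out 1 library turned the sign in NBN against BP alone, with ranges of -0.62 to 0.33 for Actl6b, -0.51 to 0.29 for Ss18, -0.57 to 0.91 for Ss18l1 and -0.38 to 0.31 for Smarca2.

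TPM keep no depth, and means of sparse genes such as Phf10 and Dpf3 rest on few cells, so small differences in them were not detectable here.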

Other observations

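Cells were also split by a G2/M profile in the 13 libraries that had at least 10 cells on each side. Actl6a was higher in cells with the profile in 8 of the 13 by mean TPM, and was detected in a larger share of them in 10 of the 13. Smarca2 was higher by mean TPM in 3 of 13, although it was detected in a larger share of such cells in 10 of 13, and Actl6b was higher by mean TPM in 4 of 13 and by share in 6 of 13. Cells with the profile also had more genes detected in 12 of the 13 libraries, so detection moves with the profile, and its part in these counts was not tested.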
